A study of Homo sapiens with 22 samples.

Results

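The genes described here are 32 members of the pathways that make cholesterol and fatty acids, taken as a fixed list of symbols and matched to the Ensembl identifiers of the deposited counts. They make up 32 of the 58278 gene entries of the series, and all 32 had enough reads to be tested in both assays. By role they are 7 enzymes of the mevalonate steps, 11 enzymes from squalene to sterols, 6 regulators and carriers, and 8 enzymes of fatty acid synthesis. The cells were LN308, an established line of p53-deficient glial cells derived from an astrocytoma, and every group below shares that background. ER stress was induced with tunicamycin at 2.5 µg/ml, which blocks N-glycosylation of proteins, or with thapsigargin at 200 nM, which empties the calcium store of the endoplasmic reticulum (ER) by blocking its pump. Libraries of total RNA (RNA-Seq) and of ribosome-protected fragments (Ribo-Seq, footprints) were made from tunicamycin-treated cells at 2 h and 6 h, with 3 replicates each, from thapsigargin-treated cells at 2 h and 6 h, with 1 library each, and from untreated cells, with 3 replicates. Samples at 0 h are labelled untreated, while the protocol names the solvent DMSO as control. Whether the replicates were grown as separate cultures is not stated in the labels, and the p-values cover only the spread among these libraries, which may be technical.

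Sterol and fatty acid genes are switched on by the sterol regulatory element binding proteins (SREBPs), which are made as membrane proteins of the ER. SCAP escorts them to the Golgi, where proteases release the active factor, and the INSIG proteins hold SCAP back in the ER when sterols are plentiful. SREBP2, encoded by SREBF2, acts mainly on sterol genes, and SREBP1, encoded by SREBF1, mainly on fatty acid genes.

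Promoter sequences were examined for 28 of the 32 members, from 250 bases before to 50 bases after each start of transcription in RefSeq (GRCh38.p14). The other 4, ACAT2, FDFT1, SQLE and FASN, had no promoter entry and were not searched. The 3 stretches below are shown because STARD4 is the member whose RNA and footprints rose after tunicamycin, and because INSIG1 and SREBF2 hold sterol-type motifs. Capitals mark CCAAT boxes (CCAAT, or ATTGG where the box lies on the opposite strand) and, in SREBF2, a match to the sterol regulatory element (TCACNCCAC). In INSIG1 they also mark a looser match with 1 more free letter (TCANNCCAC), which does not match the element itself.
STARD4, chr5:111512646-111512711, minus strand, positions -176 to -111 from the start: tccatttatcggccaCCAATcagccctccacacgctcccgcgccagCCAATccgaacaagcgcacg
INSIG1, chr7:155297693-155297793, plus strand, positions -185 to -85: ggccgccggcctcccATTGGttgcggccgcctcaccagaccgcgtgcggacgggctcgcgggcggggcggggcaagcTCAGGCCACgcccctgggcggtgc
SREBF2, chr22:41832957-41833018, plus strand, positions -148 to -87: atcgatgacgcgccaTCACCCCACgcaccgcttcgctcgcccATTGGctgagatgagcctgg

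The sterol regulatory element was searched as TCACNCCAC on both strands and was found in 1 of the 28 promoters (3.57%), that of SREBF2, and in 379 of the 27305 genes with a promoter in the table (1.39%). With 1 more free letter, TCANNCCAC, which includes the first motif, it was found in 4 of 28 (14.3%; SREBF2, INSIG1, ACLY and ELOVL5) and in 4.74% of all genes. The CCAAT box, the binding motif of NF-Y, a partner of SREBPs, lay in 21 of 28 members (75%) and in 39.7% of all genes. Among sterol enzymes 13 of 15 held it (86.7%). The letters TGATGNAA, a form of the composite site bound by ATF4 with a partner, were in 0 of the 28 windows and in 4.46% of all genes. A match describes these letters only and shows no binding.

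The RNA libraries held 101371822 to 166586145 counted reads and the footprint libraries 4387173 to 29183769. HSPA5, the ER chaperone that marks ER stress, reached 11235 ± 3977 CPM (reads per unit of library total, after TMM normalisation, the trimmed mean method of edgeR) in RNA at 6 h of tunicamycin, against 885 ± 335 CPM in untreated cells (SD, n = 3 each). Of the glial markers, VIM, NES, S100B, SOX2 and OLIG2 were expressed, GFAP was at 0.678 to 3.38 CPM in RNA, SLC1A3 at 1.65 to 33.7 CPM, and AQP4, ALDH1L1, SLC1A2 and SOX9 were near 0. SLC1A3 averaged 2.17 ± 0.222 CPM at 6 h of tunicamycin and 13.2 ± 17.7 CPM in untreated cells (SD, n = 3 each). Replicate 1 stood apart in every RNA group: the chi-square per degree of freedom was 417 to 543 between replicate 1 and the others of its group, against 25.8 to 52.3 between replicates 2 and 3. Mitochondrially encoded mRNA made up 0.443% to 0.587% of RNA reads in replicate 1 of tunicamycin at 2 h and 6 h and in both libraries of thapsigargin, against 1.06% to 1.61% in the other RNA libraries. In the untreated replicate 1 RNA library 53489 genes had at least 1 read, while the other RNA libraries had 38264 to 40331 such genes. In untreated footprints, replicate 1 also stood apart, with chi-square values of 219 and 217, against 31.6 between replicates 2 and 3. In tunicamycin footprints these values were 80.5 and 103 against 52.1 at 2 h, and 55.1 and 86.2 against 64.9 at 6 h. The untreated replicate 1 footprint library held 29183769 counted reads, against 8477747 and 9774377 in replicates 2 and 3. Its mitochondrial mRNA share was 0.869%, against 2.33% and 2.07%. The part of these differences in the results below was not tested, and the tunicamycin results are given with all libraries and with replicates 2 and 3 alone or by pair. In bulk libraries, fewer cells of a kind and less RNA per cell cannot be told apart.

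After 6 h of tunicamycin, STARD4 was the 1 member of 32 whose RNA changed by edgeR's quasi-likelihood test at an adjusted p under 0.05, and it rose. STARD4 is a soluble carrier that moves cholesterol between membranes. In RNA it was at 76.6, 70.3 and 77.4 CPM in untreated cells, at 111, 131 and 119 CPM at 2 h and at 284, 196 and 219 CPM at 6 h. Every 6 h library lay above every 2 h library, and every 2 h library above every untreated one. The log2 fold change at 6 h was 1.64 ± 0.218 (SE; adjusted p = 0.00556, edgeR with Benjamini-Hochberg adjustment over 41130 genes). That test called 1.5% of all genes. The call held without any 1 library, with fold changes of 1.48 to 1.73. Between 2 h and 6 h STARD4 RNA differed by 0.95 ± 0.215 (adjusted p = 0.0843, edgeR).

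STARD4 footprints were at 57, 39.1 and 42.1 CPM in untreated cells, at 39.8, 52.2 and 27.4 CPM at 2 h, and at 130, 117 and 122 CPM at 6 h. The 2 h and untreated libraries overlapped, and the 6 h libraries stood above both. STARD4 was again the 1 member called, with a log2 fold change of 1.41 ± 0.277 at 6 h against untreated (adjusted p = 0.0339, edgeR; 0.84% of 19411 genes called). Against 2 h it was higher by 1.62 ± 0.28 (adjusted p = 0.0203, edgeR; 0.752% of genes called). The first call was lost without any 1 of the 3 tunicamycin 6 h libraries or without untreated replicate 2 or 3 (adjusted p = 0.129 to 0.153, edgeR) and with library size as the scale (adjusted p = 0.0573, edgeR). The second was lost without any 1 of the 6 h libraries or without 2 h replicate 2 or 3 (adjusted p = 0.0526 to 0.098, edgeR). The fold change stayed between 1.31 and 1.65 in the first and between 1.42 and 1.87 in the second.

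**Figure D1:**
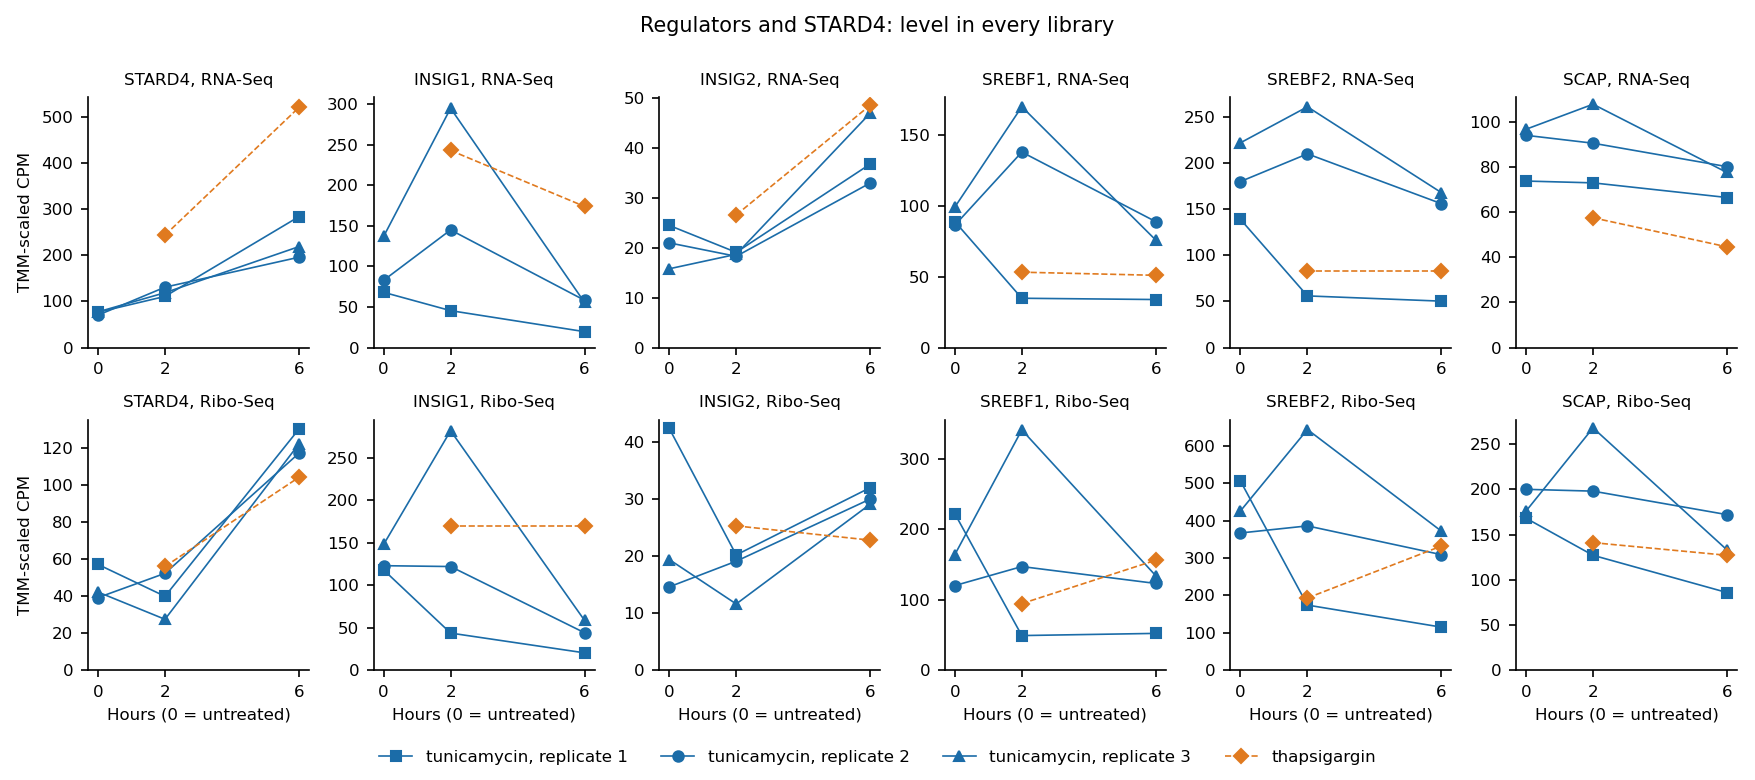
Level of STARD4 and the 5 regulators (TMM-scaled CPM, vertical axes from 0) against hours of treatment, in RNA-Seq (top row) and Ribo-Seq (bottom row). Each point is 1 library, blue lines join tunicamycin libraries of the same replicate number to the untreated library of that number, and orange diamonds are the single thapsigargin libraries. STARD4 stands above all untreated libraries at 6 h in both assays, while INSIG1 at 6 h of tunicamycin lies below all untreated libraries.

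In the mevalonate steps, which turn acetyl-CoA into farnesyl diphosphate, no member passed the test at 6 h of tunicamycin, and the median log2 fold change of the 7 enzymes was 0.19 (range -0.19 to 0.44). HMGCS1, which makes HMG-CoA, was at 30.2, 38 and 47.1 CPM in untreated cells, at 39.8, 57.6 and 83.6 CPM at 2 h and at 50.8, 51 and 54.5 CPM at 6 h. The 6 h libraries lay above all untreated ones, and the difference of 0.44 ± 0.282 did not pass the test (adjusted p = 0.386, edgeR). PMVK, the kinase of phosphomevalonate, had the lowest fold change of the role, at -0.19 ± 0.29. It was at 9.61, 22.1 and 18.1 CPM in untreated cells, at 15.8, 17.8 and 19.9 CPM at 2 h and at 13.4, 15.9 and 14.2 CPM at 6 h. The untreated libraries spanned all the treated values.

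From squalene to sterols, the 11 enzymes had a median log2 fold change of -0.16 in RNA at 6 h (range -0.42 to 1.12). HSD17B7 and NSDHL, which work together in removing methyl groups from the sterol ring, had the highest values of the role. HSD17B7 was at 9.31, 7.98 and 6.51 CPM in untreated cells, at 14.4, 12.9 and 11.4 CPM at 2 h and at 24.5, 14.5 and 12.8 CPM at 6 h. All treated libraries were above all untreated ones, with a 6 h difference of 1.12 ± 0.28 (adjusted p = 0.089, edgeR). NSDHL RNA was at 10.6, 14.4 and 15.2 CPM in untreated cells, at 15.6, 14.5 and 17 CPM at 2 h and at 25.1, 20.3 and 21.2 CPM at 6 h. Its 6 h libraries stood above all others, with a difference of 0.72 ± 0.217 from untreated (adjusted p = 0.15, edgeR). With the replicate number as a block, both rose, HSD17B7 by 1.04 ± 0.154 (adjusted p = 0.0127, edgeR) and NSDHL by 0.69 ± 0.141 (adjusted p = 0.0331, edgeR). The blocked fit called 3 members (these and STARD4) and 7.86% of all genes. DESeq2, without the block, called 5 members at 6 h against untreated, and 8.17% of all genes it tested. NSDHL, HSD17B7, INSIG2 and STARD4 were higher, and ACLY was lower. FDFT1, squalene synthase, was at 86.3, 77.9 and 77.4 CPM in untreated cells, at 73.2, 98.7 and 104 CPM at 2 h and at 60.3, 61.7 and 58.6 CPM at 6 h. It was the lowest of the role at 6 h (-0.42 ± 0.203, adjusted p = 0.309, edgeR), and its 6 h libraries were below all others.

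**Figure D2:**
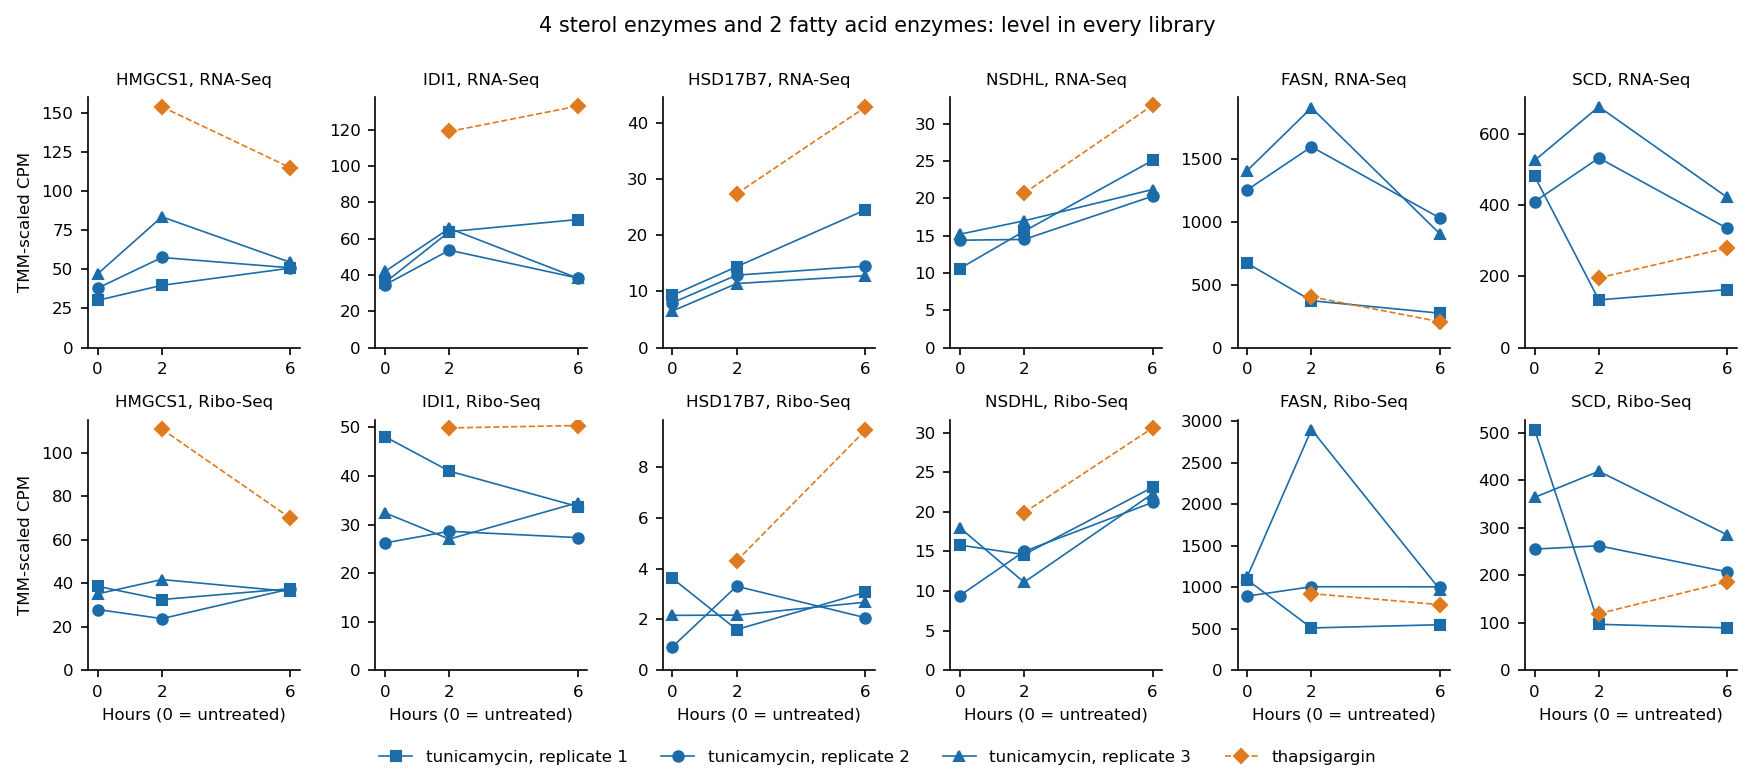
Level of 4 sterol enzymes (HMGCS1, IDI1, HSD17B7, NSDHL) and 2 fatty acid enzymes (FASN, SCD) in TMM-scaled CPM against hours of treatment, in RNA-Seq (top row) and Ribo-Seq (bottom row). Each point is 1 library, lines join libraries of the same replicate number, and orange diamonds are the single thapsigargin libraries. Thapsigargin RNA of the 4 sterol enzymes lies above every untreated library, and that of FASN and SCD below every untreated library.

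Among the regulators, the 2 INSIG genes lay on opposite sides of untreated at 6 h. INSIG1 RNA was at 68.1, 82.9 and 137 CPM in untreated cells, at 45.5, 145 and 295 CPM at 2 h and at 19.6, 58.3 and 55.7 CPM at 6 h. The 2 h libraries ran from below to above the untreated ones, and the 6 h libraries were below all untreated ones. In each same-numbered pair the 6 h library was below the 2 h one, by -1.86 ± 0.618 in the fit (adjusted p = 0.273, edgeR). DESeq2 gave -1.86 ± 0.6 (adjusted p = 0.0357), and without 2 h replicate 3, the highest library, INSIG1 differed by -1.09. INSIG2 RNA was at 24.5, 21 and 15.8 CPM in untreated cells, at 19.1, 18.3 and 18.7 CPM at 2 h and at 36.8, 33 and 47 CPM at 6 h. Every 6 h library was above every earlier one, with differences of 0.93 ± 0.23 from untreated (adjusted p = 0.0876, edgeR) and 1.06 ± 0.231 from 2 h (adjusted p = 0.0757, edgeR). With the replicate block, INSIG2 rose between 2 h and 6 h by 1.08 ± 0.234 (adjusted p = 0.0473, edgeR), as did STARD4 by 0.95 ± 0.172 (adjusted p = 0.0274, edgeR). These were the 2 members called in that fit, which called 5.63% of all genes. Without untreated replicate 1, INSIG2 and STARD4 were both called at 6 h against untreated, with 3.09% of all genes. DESeq2 with all libraries also called both of them higher there, with 8.17% of all genes it tested.

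The SREBP genes themselves divided by replicate number. SREBF1 RNA was at 88.9, 86.4 and 99.2 CPM in untreated cells, at 34.8, 138 and 170 CPM at 2 h and at 33.9, 88.9 and 75.9 CPM at 6 h. SREBF2 RNA was at 139, 180 and 222 CPM in untreated cells, at 56, 210 and 261 CPM at 2 h and at 50.3, 156 and 168 CPM at 6 h. For both genes the replicate 1 libraries of tunicamycin lay far below replicates 2 and 3, and at 2 h the replicates lay on both sides of the untreated range. SCAP RNA was at 73.9, 94.2 and 96.9 CPM in untreated cells, at 73.1, 90.7 and 108 CPM at 2 h and at 66.6, 80.3 and 77.7 CPM at 6 h, with overlapping groups. The 6 h differences from untreated were -0.47 ± 0.504 for SREBF1, -0.53 ± 0.547 for SREBF2 and -0.24 ± 0.221 for SCAP, and none passed the test (adjusted p = 0.606, 0.587 and 0.542, edgeR).

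In fatty acid synthesis, all 8 log2 fold changes at 6 h of tunicamycin were below 0 (median -0.42, range -0.72 to -0.02), none passed edgeR's test, and 1 had an unadjusted p under 0.05. DESeq2 called 1 of the 8, and 8.17% of all genes it tested, a share near that of the list. It was ACLY, which makes cytosolic acetyl-CoA from citrate (-0.39 ± 0.116, adjusted p = 0.0168, DESeq2). FADS2, a desaturase of polyunsaturated fatty acids, was the lowest, with 70.2, 69.8 and 95.6 CPM in untreated cells, 28.3, 78.1 and 118 CPM at 2 h and 22.7, 52.6 and 67.9 CPM at 6 h. Its 6 h libraries were all below the untreated ones, with a difference of -0.72 ± 0.493 (adjusted p = 0.416, edgeR). ELOVL5, an elongase, was the highest, with 172, 215 and 269 CPM in untreated cells, 220, 235 and 321 CPM at 2 h and 215, 202 and 229 CPM at 6 h. Its 6 h values lay inside the untreated range (-0.02 ± 0.243). FASN, the synthase itself, was chosen for mention after its values were seen. It was at 670, 1253 and 1406 CPM in untreated cells, at 372, 1595 and 1905 CPM at 2 h and at 273, 1029 and 903 CPM at 6 h, and the replicate 1 libraries were the lowest of each group.

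Set beside each other at 6 h, the 18 sterol enzymes had a median log2 fold change of 0.06 with 10 above 0, and the 8 fatty acid enzymes one of -0.42 with 0 above 0. The median of all genes tested was -0.27. The groups did not overlap for 7 members that were higher at 6 h (HMGCS1, MVD, MSMO1, NSDHL, HSD17B7, INSIG2 and STARD4), against 10.5% of all genes. They did not overlap for 8 that were lower (FDFT1, SQLE, INSIG1, ACLY, ACACA, ELOVL6, FADS1 and FADS2), against 10.6% of all genes. In all 3 same-numbered pairs 13 members were lower at 6 h, against 21.5% of all genes, and 7 of the 13 were fatty acid enzymes. Where only genes at 1 CPM or more in 3 libraries were kept, the median of all genes was -0.03, that of the sterol enzymes was -0.09 with 7 above 0, and that of the fatty acid enzymes was -0.58. With library size as the scale, the median of all genes was -0.58, that of the sterol enzymes -0.25 and that of the fatty acid enzymes -0.74. The sign of the sterol median thus turned with filter and scale. The sterol median minus the fatty acid median, taken before rounding, was 0.49 in the fit of all libraries, 0.50 with the 1 CPM filter, 0.49 with library size and 0.26 in replicates 2 and 3 alone.

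At 2 h of tunicamycin, 0 of the 32 members passed edgeR's test in RNA, against 0.00973% of all genes. 4 members had an unadjusted p under 0.05, and DESeq2 called 0, against 0.248% of all genes it tested. Of the sterol enzymes 16 of 18 had log2 fold changes above 0 (median 0.23), with 12 of 18 under the filter of 1 CPM and 11 of 18 with library size as the scale. IDI1, which isomerises isopentenyl diphosphate and was chosen after its values were seen, was at 63.8, 53.6 and 65.6 CPM at 2 h, against 35.8, 34.5 and 41.9 CPM in untreated cells. These groups did not overlap (0.71 ± 0.267, adjusted p = 0.548, edgeR). The fatty acid enzymes had a median of 0.04, and that of all genes was -0.17. The sign of the fatty acid median turned with the setting, to -0.13 with the 1 CPM filter and -0.18 with library size, and it was 0.21 in replicates 2 and 3 alone. The median of all genes was -0.02 with the 1 CPM filter and 0.04 without untreated replicate 1. The groups did not overlap for 3 members that were higher at 2 h (IDI1, HSD17B7 and STARD4), against 3.44% of all genes, and for 1 that was lower (ACLY), against 5.88%.

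Between 2 h and 6 h of tunicamycin, RNA of most members lay lower at the later time, and none passed edgeR's test, against 0.742% of all genes. 6 members had an unadjusted p under 0.05, and DESeq2 called 5 (INSIG2 and STARD4 higher, FDFT1, INSIG1 and ACACA lower), against 5.95% of all genes it tested. Log2 fold changes were below 0 for 25 of the 32 members and for 8 of the 8 fatty acid enzymes. The median was -0.28 in sterol enzymes, -0.49 in fatty acid enzymes and 0.00 in all genes. The difference of the first 2 medians, 0.21, was 0.02 without 2 h replicate 3 and 0.04 without 6 h replicate 1. In all 3 same-numbered pairs 20 members were lower at 6 h, against 24.6% of all genes, among them 7 of the 8 fatty acid enzymes and 9 of the 18 sterol enzymes. The members with fold changes above 0 were MVD, TM7SF2, MSMO1, NSDHL, HSD17B7, INSIG2 and STARD4.

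**Figure D3:**
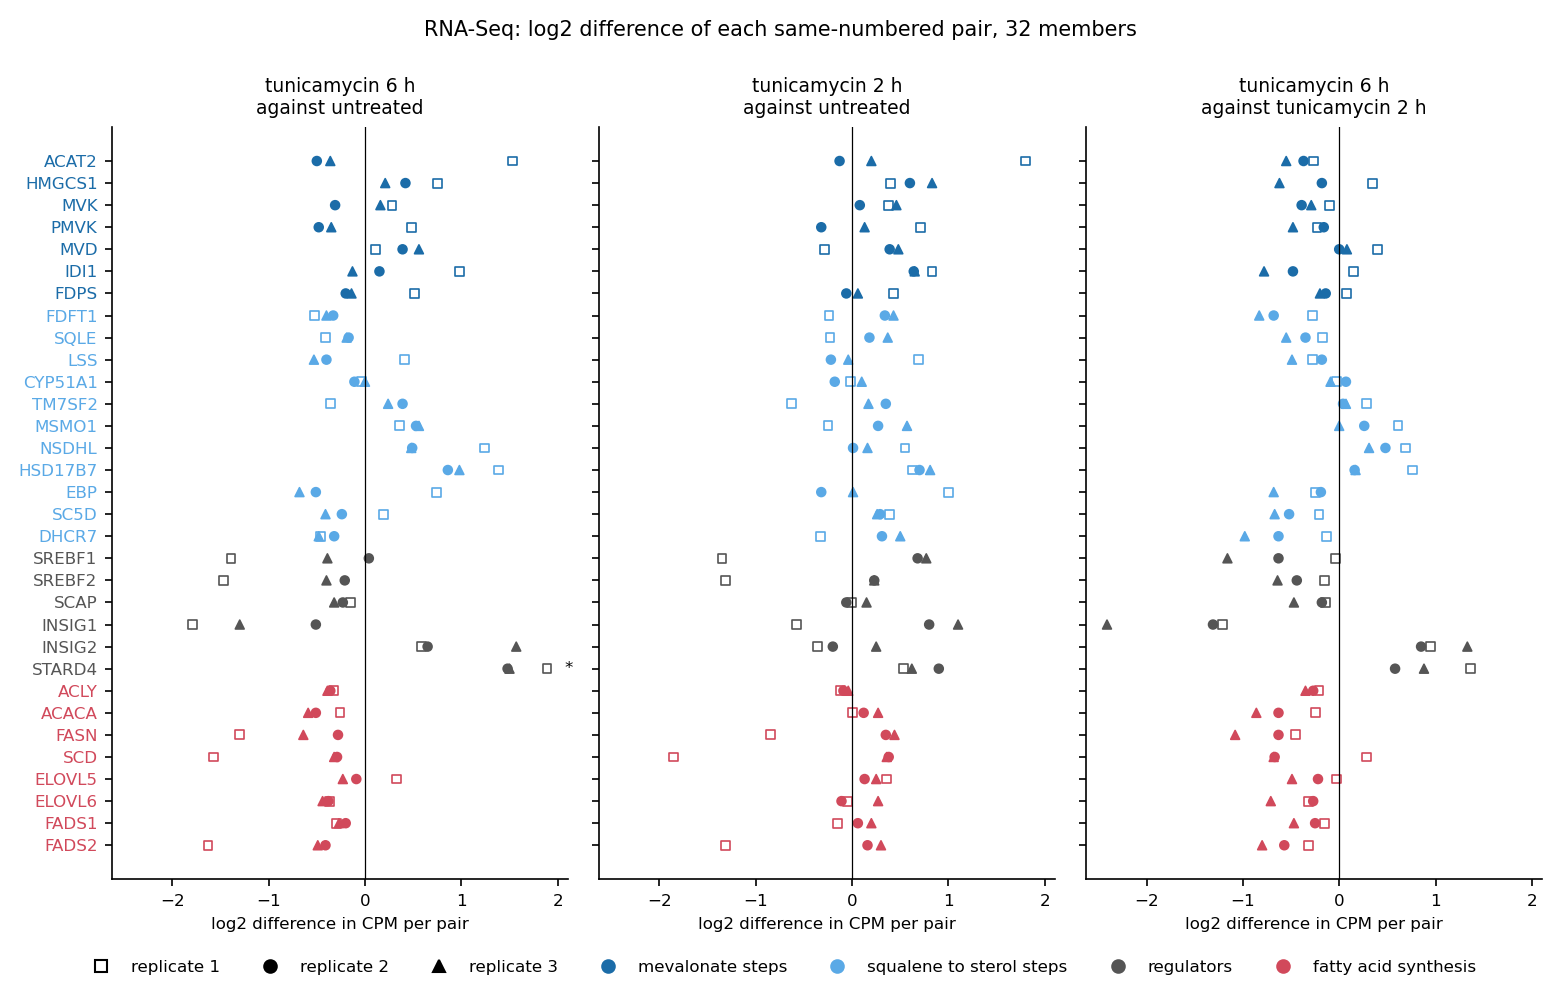
Log2 difference of TMM-scaled CPM in RNA-Seq for each same-numbered pair of libraries (horizontal axis) and each of the 32 members (vertical axis, coloured by role), for tunicamycin 6 h against untreated, 2 h against untreated and 6 h against 2 h. Open squares are replicate 1, circles replicate 2 and triangles replicate 3, and an asterisk marks a member called by edgeR. At 2 h against untreated the pairing was not taken as shown, since the lowest correlation of same-numbered libraries was under 0.1. SREBF1, SREBF2, FASN, SCD and FADS2 show replicate 1 far to the left of the other pairs against untreated, and STARD4 lies right of 0 in all pairs.

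Replicates 2 and 3 alone gave a narrower spread than all 3, and more members and more genes were then called. This fit has 2 libraries a group, and its calls are read against its own background. At 6 h against untreated, 5 members rose, against 10.6% of all genes: STARD4 (1.51), INSIG2 (1.14), HSD17B7 (0.94), NSDHL (0.51) and MVD (0.50), on the log2 scale. 8 members fell, against 8.82% of all genes: ACAT2, FDFT1, LSS and EBP among sterol enzymes (-0.34 to -0.57), and ACLY, ACACA, FASN and ELOVL6 among fatty acid enzymes (-0.35 to -0.53). At 2 h against untreated 6 members rose, against 2.67% of all genes: STARD4 (0.78), HSD17B7 (0.77), HMGCS1 (0.75), SREBF1 (0.75), IDI1 (0.66) and FDFT1 (0.41). Their adjusted p-values were 0.00604 to 0.0492 (edgeR).

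Between 2 h and 6 h in replicates 2 and 3, 3 members rose, against 12.6% of all genes: INSIG2 (1.12), STARD4 (0.74) and NSDHL (0.40). 17 members fell, against 12.5% of all genes. INSIG1 fell by 1.94 on the log2 scale (SE 0.399, adjusted p = 0.0221, edgeR), SREBF1 by 0.89, SREBF2 by 0.54 and SCAP by 0.32. Fatty acid enzymes among them were FASN (-0.85), ACACA (-0.73), SCD (-0.67), ELOVL6 (-0.49), FADS1 (-0.36) and ACLY (-0.30). Sterol enzymes among them were DHCR7 (-0.82), FDFT1 (-0.75), IDI1 (-0.63), ACAT2 (-0.46), SQLE (-0.45), EBP (-0.44) and LSS (-0.33). With the replicate block added to this pair, 24 members were called at 6 h against untreated (32.6% of all genes) and 25 between the times (38.7%). INSIG1 was not among the 25, so its RNA call was lost with the block. In footprints, replicates 2 and 3 alone gave 2 calls between 2 h and 6 h, INSIG1 (-1.96 ± 0.406, adjusted p = 0.0499, edgeR) and STARD4, against 4.18% of all genes.

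No member other than STARD4 passed the test in footprints after tunicamycin. At 6 h the median log2 fold change was -0.23 in sterol enzymes, -0.68 in fatty acid enzymes and -0.07 in all genes, and all 8 fatty acid enzymes were below 0. In replicates 2 and 3 alone, 5 of the 8 were below 0, with a median of -0.30, and the sterol median was -0.15. Without untreated replicate 1 the medians were -0.17 in sterol enzymes and -0.35 in fatty acid enzymes. The 2 lists thus lay closer together in these fits than with all libraries. In all 3 same-numbered pairs 16 members were lower at 6 h, against 21.2% of all genes. DESeq2 called 1 member at 6 h, STARD4, against 4.64% of all genes it tested. At 2 h, 0 members were called by edgeR, and 0% of all genes, with 0 members at an unadjusted p under 0.05 and 0 called by DESeq2 (0.0155% of all genes it tested). The 2 h medians were -0.03 in sterol enzymes, -0.25 in fatty acid enzymes and -0.02 in all genes, and the difference of sterol and fatty acid medians, 0.22, was -0.02 without untreated replicate 1. Between 2 h and 6 h, 13 members were lower in all 3 pairs, against 21% of all genes.

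Over all 32 members the highest and lowest footprint fold changes at 6 h were those of STARD4 and INSIG1. Within each of the 3 enzyme roles, the highest and lowest were as follows. MVD, which makes isopentenyl diphosphate, was at 28.9, 25.1 and 20.5 CPM in untreated cells, at 10.8, 35 and 57.8 CPM at 2 h and at 31.2, 35.7 and 32.1 CPM at 6 h, so the 6 h libraries were above the untreated ones (0.41 ± 0.449). MVK, mevalonate kinase, was at 15, 18.2 and 12.8 CPM in untreated cells, at 8.85, 12.8 and 23.8 CPM at 2 h and at 11.6, 11 and 12.5 CPM at 6 h, just below them (-0.39 ± 0.382). For both, the 2 h libraries were spread to both sides of the other times. NSDHL was at 15.8, 9.41 and 18 CPM in untreated cells, at 14.6, 15 and 11.1 CPM at 2 h and at 23.1, 21.2 and 22.3 CPM at 6 h, above all earlier libraries (0.62 ± 0.318). SQLE, squalene epoxidase, was at 74.2, 54.4 and 55.5 CPM in untreated cells, at 27.6, 54.3 and 89.6 CPM at 2 h and at 27.7, 41.5 and 45.4 CPM at 6 h, below all untreated libraries (-0.68 ± 0.373). SQLE and MVD thus lay on opposite sides of untreated. ELOVL5 was at 235, 194 and 188 CPM in untreated cells, at 178, 169 and 157 CPM at 2 h and at 148, 179 and 198 CPM at 6 h, overlapping at 6 h (-0.23 ± 0.235). SCD, the desaturase that makes monounsaturated fatty acids, was at 507, 255 and 364 CPM in untreated cells, at 96.5, 262 and 419 CPM at 2 h and at 89, 207 and 285 CPM at 6 h, with replicate 1 the lowest after treatment (-0.96 ± 0.538). None of these 6 passed the test (adjusted p = 0.463 to 0.784, edgeR).

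In footprints, INSIG1 was again below all untreated libraries at 6 h, while INSIG2 overlapped with them. INSIG1 was at 118, 123 and 148 CPM in untreated cells, at 43.6, 122 and 282 CPM at 2 h and at 20.3, 44 and 58.6 CPM at 6 h. All 6 h libraries were below all untreated ones (-1.66 ± 0.602, adjusted p = 0.31, edgeR). The highest value came from the shallowest footprint library, 2 h replicate 3. Between 2 h and 6 h DESeq2 called INSIG1 (-1.87, adjusted p = 0.0274) and STARD4, against 4.31% of all genes it tested, and edgeR did not call INSIG1 (-1.86 ± 0.606, adjusted p = 0.299). INSIG2 was at 42.4, 14.6 and 19.4 CPM in untreated cells, at 20.2, 19.1 and 11.6 CPM at 2 h and at 32, 30 and 29.1 CPM at 6 h. Untreated replicate 1 was the highest, so the 6 h and untreated groups overlapped (0.25 ± 0.386). SREBF1 was at 222, 120 and 164 CPM in untreated cells, at 49, 147 and 341 CPM at 2 h and at 52.1, 123 and 134 CPM at 6 h. SREBF2 was at 506, 367 and 426 CPM in untreated cells, at 174, 386 and 644 CPM at 2 h and at 115, 309 and 372 CPM at 6 h. SCAP was at 168, 200 and 176 CPM in untreated cells, at 127, 198 and 268 CPM at 2 h and at 85.8, 172 and 133 CPM at 6 h. In each of these 3 genes replicate 1 was the lowest tunicamycin library at both times, while untreated replicate 1 was the highest for SREBF1 and SREBF2.

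**Figure D4:**
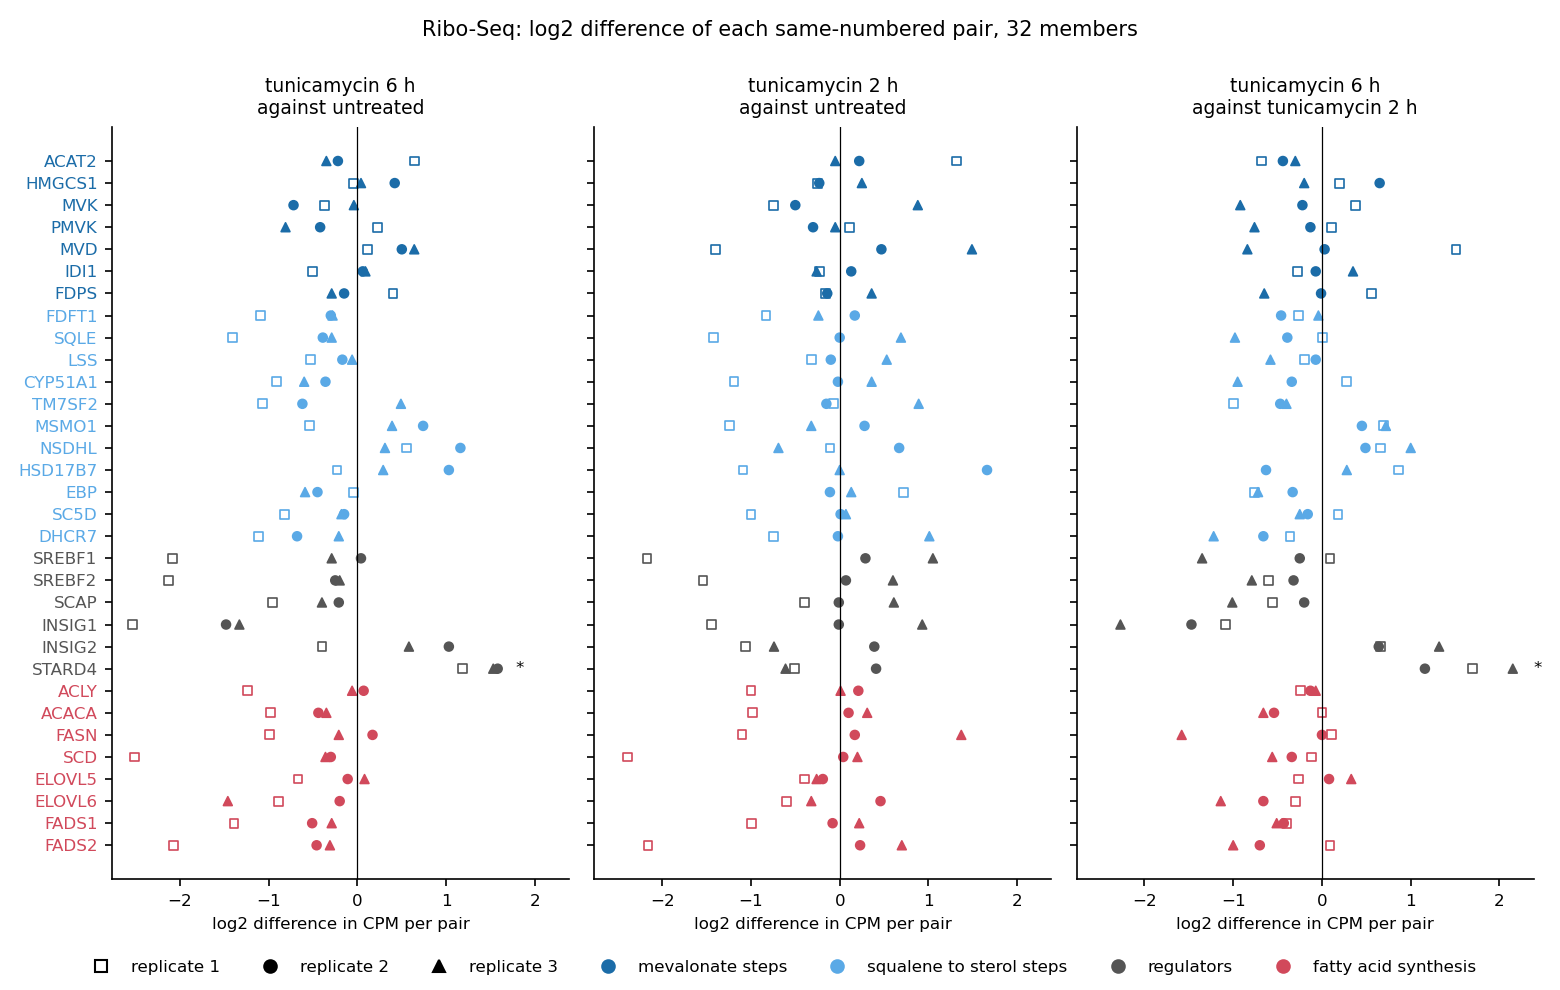
Log2 difference of TMM-scaled CPM in Ribo-Seq for each same-numbered pair of libraries (horizontal axis) and each of the 32 members (vertical axis, coloured by role), for tunicamycin 6 h against untreated, 2 h against untreated and 6 h against 2 h. Open squares are replicate 1, circles replicate 2 and triangles replicate 3, and an asterisk marks a member called by edgeR. STARD4 lies right of 0 and INSIG1 left of 0 in all pairs at 6 h, and replicate 1 lies left of 0 for 26 of the 32 members at 6 h against untreated and for 29 at 2 h.

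Translational efficiency compares footprints with RNA of the same gene, and its change was fitted with edgeR to the RNA and footprint libraries jointly. No member passed at 6 h against untreated, at 2 h against untreated or between 6 h and 2 h, and 0%, 0% and 0% of 18500 genes did. At an unadjusted p under 0.05 there were 0, 1 and 1 members, and DESeq2 called 0 in each, against 0.109%, 0.0761% and 0.0544% of all genes it tested. The member medians were -0.10, -0.15 and 0.04. At 6 h against untreated the member median was -0.76 in the replicate 1 pair, with 30 of 32 below 0, against 0.04 and 0.02 in the pairs of replicates 2 and 3. The median of all genes was also low in the replicate 1 pair, at -0.51, with 12761 of 18500 below 0. It was 0.01 and -0.02 in the pairs of replicates 2 and 3. STARD4 differed by -0.06 ± 0.327 at 6 h, by -0.76 ± 0.328 at 2 h and by 0.70 ± 0.328 between 6 h and 2 h (adjusted p = 1 in each, edgeR). At 2 h its RNA was above untreated in every library, and its footprints were not.

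Thapsigargin gave higher RNA of several sterol genes than any untreated library. With 1 library a time, its tests borrow the spread of the other groups and have no replicate check. At 6 h edgeR called 3 members, all higher, with 1.79% of all genes. STARD4 was at 521 CPM, against 76.6, 70.3 and 77.4 CPM in untreated cells (2.80 ± 0.273, adjusted p = 0.00199, edgeR). HSD17B7 was at 42.8 CPM, against 9.31, 7.98 and 6.51 CPM in untreated cells (2.43 ± 0.357, adjusted p = 0.0106, edgeR). IDI1 was at 133 CPM, against 35.8, 34.5 and 41.9 CPM in untreated cells (1.84 ± 0.347, adjusted p = 0.0298, edgeR). The IDI1 call was lost without untreated replicate 2 or 3 (adjusted p = 0.0978 and 0.0682, edgeR). With library size as the scale, the IDI1 and HSD17B7 calls were lost (adjusted p = 0.0758 and 0.0595, edgeR). DESeq2 called 10 members, and 13.3% of all genes it tested: HMGCS1, IDI1, SQLE, MSMO1, NSDHL, HSD17B7, INSIG2 and STARD4 higher, SCAP and FASN lower.

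By position against the 3 untreated libraries, the 6 h thapsigargin RNA library was above all of them for 15 members, against 25.2% of all genes, and below all of them for 9, against 28.6%. Of the 18 sterol enzymes 10 were above and 0 below, and of the 8 fatty acid enzymes 2 were above (ELOVL5 and FADS1) and 6 below. The medians were 0.44 in sterol enzymes, -0.49 in fatty acid enzymes and -0.50 in all genes. With the 1 CPM filter they were 0.26, -0.67 and -0.06, and without untreated replicate 1 they were 0.40, -0.52 and -0.06, so the fatty acid median met that of all genes in the first of these fits and lay below it in the others. FASN was at 205 CPM, against 670, 1253 and 1406 CPM in untreated cells, and FADS2 at 28.4 CPM, against 70.2, 69.8 and 95.6 CPM. These libraries share the low mitochondrial mRNA share and the low SREBF1, SREBF2, FASN, SCD and FADS2 of the replicate 1 libraries of tunicamycin, and the part of that in the fatty acid values was not tested. At 2 h edgeR called 0 members, against 0.0997% of all genes, with 5 at an unadjusted p under 0.05. DESeq2 called 4 (HMGCS1, IDI1, HSD17B7 and STARD4, all higher), against 3.39% of all genes it tested. HMGCS1 was at 154 CPM at 2 h, against 30.2, 38 and 47.1 CPM in untreated cells (2.00 ± 0.366, adjusted p = 0.0866, edgeR). The 2 h library was above all untreated ones for 14 members, against 25.6% of all genes, and below them for 11, against 24.9%.

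In footprints, thapsigargin gave 0 calls by edgeR at 6 h, against 0.974% of all genes, and 0 at 2 h, against 0.0824%. At an unadjusted p under 0.05 there were 6 and 2 members, and DESeq2 called 1 at each time, STARD4 at 6 h, against 7.45% of all genes it tested, and HMGCS1 at 2 h, against 1.35%. STARD4 footprints were at 104 CPM at 6 h, against 57, 39.1 and 42.1 CPM in untreated cells. HMGCS1 footprints were at 111 CPM at 2 h, against 38.6, 27.9 and 35.1 CPM in untreated cells. All 7 mevalonate enzymes were above all untreated libraries at both times, with medians of 0.80 at 6 h and 0.58 at 2 h. The 11 enzymes from squalene to sterols did not share this. At 6 h 2 of them were above and 2 below all untreated libraries, and at 2 h 3 were above and 4 below. Their medians were -0.01 at 6 h and -0.31 at 2 h, and those of all genes were -0.27 and -0.15. Of the 8 fatty acid enzymes, 7 at 6 h and 5 at 2 h were below all untreated libraries, with medians of -0.63 and -0.36. Over all members, 11 were above at 6 h (26.9% of all genes) and 11 below (33.9%). At 2 h 11 were above (24.2%) and 12 below (26.3%).

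**Figure D5:**
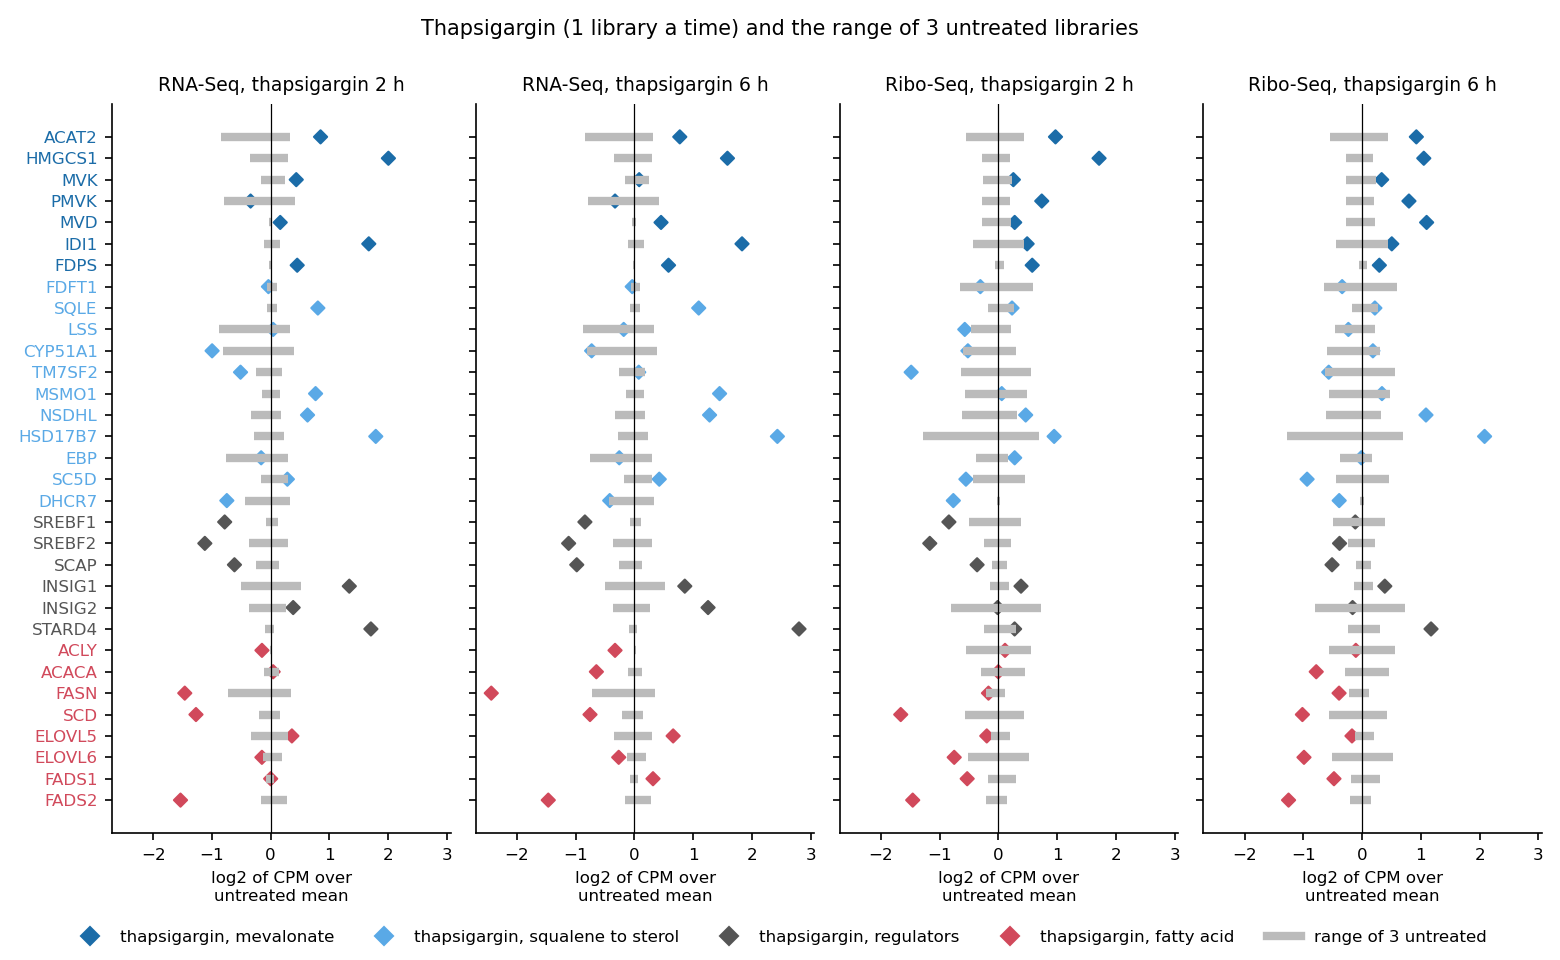
Log2 of the thapsigargin level over the mean of the 3 untreated libraries (horizontal axis, diamonds coloured by role) for the 32 members, in RNA-Seq and Ribo-Seq at 2 h and 6 h. Grey bars span the 3 untreated libraries, and each diamond is 1 library. The 7 mevalonate enzymes lie right of the grey bars in both Ribo-Seq panels, and FADS2, SCD and SREBF2 lie left of them in both RNA-Seq panels.

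The drugs were set side by side at matched times, with the limit that thapsigargin has 1 library and that its labels in Ribo-Seq carry no replicate number. In RNA at 6 h the thapsigargin library was above all 3 tunicamycin libraries for 16 members, against 26.3% of all genes, and below them for 4, against 26%. In footprints at 6 h it was above for 16, against 27.5%, and below for 4, against 30.9%. Of the 18 sterol enzymes, 10 in RNA and 13 in footprints were among those above at 6 h, and of the 8 fatty acid enzymes, 3 in RNA and 1 in footprints. At 2 h it was above for 10 members in RNA, against 26.2%, and below for 7, against 21.9%, and in footprints above for 12, against 21.3%, and below for 4, against 19.6%. STARD4 and INSIG2 at 6 h lay above all tunicamycin libraries in RNA and below all of them in footprints. STARD4 was at 521 CPM in RNA, against 196 to 284 CPM, and at 104 CPM in footprints, against 117 to 130 CPM. INSIG2 was at 48.6 CPM in RNA, against 33 to 47 CPM, and at 22.8 CPM in footprints, against 29.1 to 32 CPM. INSIG1 at 6 h lay above all tunicamycin libraries in both assays. It was at 174 CPM in RNA after thapsigargin, against 19.6, 58.3 and 55.7 CPM after tunicamycin, and at 170 CPM in footprints, against 20.3, 44 and 58.6 CPM. At 2 h INSIG1 after thapsigargin lay inside the tunicamycin range, at 243 CPM in RNA, against 45.5, 145 and 295 CPM, and at 170 CPM in footprints, against 43.6, 122 and 282 CPM. Against the replicate 1 tunicamycin library of 6 h, which shares the low mitochondrial mRNA share, INSIG1 RNA was higher by 3.14 on the log2 scale and SQLE RNA by 1.56. The median of this difference over sterol enzymes was 0.35 in RNA and 0.74 in footprints, and over fatty acid enzymes 0.17 and 0.55. The same median over all genes was not taken. In footprints these libraries do not match in mitochondrial mRNA, with 2.78% in the tunicamycin library and 1.64% in the thapsigargin one. No test of these differences was made.

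Of 44 other genes of these pathways, kept as a list of SREBP cleavage and turnover, the isoprenoid branch, sterol transport, fatty acid supply and elongation, and the LXR side, 1 was called in RNA at 6 h of tunicamycin, where 1.5% of all genes were called. It was OSBP, a sterol carrier at contacts of the ER and Golgi, which rose by 1.49 ± 0.211 (adjusted p = 0.00782, edgeR). OSBP RNA was at 174, 168 and 191 CPM at 6 h, against 53.1, 70.2 and 67.3 CPM in untreated cells. The groups did not overlap. It was also the 1 of 44 called between 6 h and 2 h, in RNA (1.37, adjusted p = 0.0177, edgeR; 0.742% of all genes called) and in footprints (1.49, adjusted p = 0.0231, edgeR; 0.752%). 0 of the 44 were called by edgeR at 2 h of tunicamycin in RNA or footprints or at 6 h in footprints, where 2, 0 and 9 had an unadjusted p under 0.05. In translational efficiency 0 were called and 0 had an unadjusted p under 0.05 in any of the 3 comparisons. After 6 h of thapsigargin, OSBP (1.37), FBXW7 (1.41), a ubiquitin ligase subunit that marks nuclear SREBP for breakdown, and RNF139 (1.39), a ubiquitin ligase of the ER membrane, were higher in RNA, and OSBPL5 (-1.78) was lower. These 4 of 44 stand beside 1.79% of all genes called, with adjusted p-values of 0.036 to 0.0453 (edgeR). At 2 h of thapsigargin FBXW7 RNA differed from untreated by 2.00 on the log2 scale. At 6 h footprints of LBR, a sterol reductase of the nuclear envelope, differed by -2.39. Each of these values rests on 1 thapsigargin library and has no replicate check.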

How the data were processed

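The deposited files hold raw read counts per Ensembl gene, 1 file a library, for 22 libraries. Per the submitters' processing notes, the authors used STAR 2.5.4b, HTSeq and DESeq2 with the GRCh38 genome. The annotation, strand setting and counted features were not given in the sources used here, so reads of overlapping and antisense genes cannot be told apart. Per the labels' protocols, footprints of 27 to 33 nucleotides came from monosomes of cells held in cycloheximide (0.1 mg/ml, 5 min). Cycloheximide can move footprints, and no position along a gene was used here.

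Identifiers were matched to symbols through a RefSeq-based name table (57437 of 58278 entries). Genes were kept by edgeR's filterByExpr (minimum count 10), normalised with TMM factors and tested with edgeR 4.0.16 (limma 3.58.1, R 4.3.3; robust quasi-likelihood test, all groups of an assay in 1 fit, Benjamini-Hochberg adjustment over all genes tested, call at an adjusted p under 0.05). Standard errors were the fold change over the root of F. Differences within pairs used log2 CPM with a prior count of 2. The edgeR test of tunicamycin 6 h against untreated was first tried on simulated data, in RNA-Seq, Ribo-Seq and translational efficiency. The simulated spread was smaller than that of these data and held no replicate effect. The other comparisons, the replicate block and DESeq2 were not simulated. The change in translational efficiency was an interaction of assay and treatment group. DESeq2 1.42.0, other filters and scales, fewer libraries, a replicate block, and replicates 2 and 3 alone were the alternatives.

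Values in every library are given for members called after tunicamycin, for the 6 regulators, and for the highest and lowest fold change of each role at 6 h in each assay. Other named members were chosen after their values were seen. The members and lists were chosen with earlier results of these data known. No 2 libraries of the same group held identical counts or agreed within sampling noise. Same-numbered libraries deviated together, with every correlation above 0.1 (0.109 to 0.676) except between tunicamycin 2 h and untreated in RNA-Seq (0.0757 to 0.238). There the pairing was not taken as shown, since the lowest correlation was under 0.1. Each 2 h library still correlated best with the untreated library of its own number. The pairing comes from the data, since the labels give only the numbers.

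Promoters were read from a RefSeq table of GRCh38.p14 (28 of 32 members matched; 27305 genes, 35116 starts) and searched on both strands in Python 3.11.15. Figures were drawn with matplotlib 3.10.9.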

Additional observations from a re-analysis of the deposited data

Results flagged for a closer look

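In footprints, the response of STARD4 to tunicamycin differed between the times: it was higher at 6 h than at 2 h by 1.62 ± 0.28 on the log2 scale (adjusted p = 0.0203, edgeR) and higher in 3 of 3 same-numbered pairs. Against untreated cells STARD4 differed by 1.41 at 6 h and by -0.21 at 2 h. The interaction of assay and time gave 0.70 ± 0.328 for STARD4 (adjusted p = 1, edgeR).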

How the results depend on the processing

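Counts of members called depended on the tool, the libraries kept and the replicate block. In RNA-Seq, tunicamycin 6 h against untreated gave 1 member in the fit of all libraries, 5 with DESeq2 (8.17% of all genes it tested), 3 with the replicate block, 13 in replicates 2 and 3 alone, 24 there with the replicate block, and 1 to 2 without any 1 library. Tunicamycin 2 h against untreated gave 0 members, 6 in replicates 2 and 3 alone and, though this pairing was not taken as shown, 15 there with the block. Tunicamycin 6 h against 2 h gave 0 members, 1 at 1 CPM or more in 3 libraries, 5 with DESeq2, 2 with only the groups compared, 2 with the replicate block, 20 in replicates 2 and 3 alone and 25 there with the block. Thapsigargin 6 h against untreated gave 3 members, 5 with the 1 CPM filter, 10 with DESeq2, 1 with library size alone and 2 to 5 without any 1 untreated library. Thapsigargin 2 h gave 0 members, 4 with DESeq2 and 0 to 1 without any 1 untreated library.

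In Ribo-Seq, tunicamycin 6 h against untreated gave 1 member, 0 with library size alone, 2 with no filter, 2 in replicates 2 and 3 with the block, and 0 to 1 without any 1 library. Tunicamycin 6 h against 2 h gave 1 member, 2 with DESeq2, 2 with no filter, 2 in replicates 2 and 3 alone, 3 there with the block, and 0 to 2 without any 1 library. Thapsigargin 6 h gave 0 members and 1 with DESeq2, and thapsigargin 2 h gave 0, 1 with DESeq2 and 1 with no filter.

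The sterol minus fatty acid median between 6 h and 2 h was 0.21 in RNA-Seq, 0.17 with the replicate block and 0.02 to 0.30 without any 1 library. In Ribo-Seq it was 0.19, and 0.10 to 0.30 without any 1 library. In RNA-Seq, ACAT2 at 6 h against untreated was 0.19 with all libraries, -0.40 in replicates 2 and 3 alone and -0.41 there with the block. At 2 h against untreated, SREBF2, SCD and FADS2 were at -0.04, -0.08 and -0.07 with all libraries and at 0.25, 0.39 and 0.25 in replicates 2 and 3 with the block. The sterol motif was in 3.57% of the members' promoters, and in 0 with the opposite strand alone. In the fit of all tunicamycin and untreated libraries, the replicate block changed no member call beyond those named in the results. In replicates 2 and 3, the block removed the RNA-Seq call of INSIG1 between 6 h and 2 h. In Ribo-Seq it added INSIG1 at 6 h against untreated and FADS2 between 6 h and 2 h. The cause of these moves was not tested. With 1 library, no thapsigargin value has a replicate check, and footprint libraries, the shallowest with 4387173 counts, limit low members such as HSD17B7.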

Other observations

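Within untreated cells, several members were lower in replicate 1 than in replicates 2 and 3 of RNA-Seq, the library with reads in the most genes. Its TMM factor, by which CPM values are divided, was 1.46, against 0.90 to 1.06 in the other RNA libraries. The part of this factor in the lower values was not tested. Other members, among them HSD17B7, INSIG2 and FDFT1, were highest in that library. ACAT2, which joins acetyl-CoA units, was at 10.6 CPM there, against 23.9 and 22.7 CPM in the others. LSS, lanosterol synthase, was at 34.1 CPM, against 75.6 and 79 CPM. EBP, a sterol isomerase, was at 23.5 CPM, against 46.7 and 48.6 CPM. MVD (20.2, 19.6 and 20.4 CPM) and ACLY (204, 204 and 208 CPM) were level across the 3 libraries.

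The branch that turns farnesyl diphosphate and isopentenyl units into other isoprenoids was described by 7 of the 44 other pathway genes. All 7 had log2 fold changes above 0 in RNA at 6 h of tunicamycin (median 0.26, range 0.03 to 1.08), and 0 were called by edgeR, with 2 at an unadjusted p under 0.05. The median over the 7 was 0.79 in the replicate 1 pair, -0.05 in the replicate 2 pair and 0.12 in the replicate 3 pair. Over all genes these pair medians were -0.40, 0.00 and 0.00. Footprints of the 7 at 6 h did not share the direction, with 3 above and 4 below 0 (median -0.03).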
